A study of Mus musculus with 6 samples.

Results

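The ribosomal protein genes were followed in RNA-seq counts of whole mouse retina, wild type (WT) against rd10. Members were chosen by symbol alone, as rows of the count table that start with Rpl or Rps and a digit or are named Rplp0, Rplp1, Rplp2 or Rpsa, leaving out the Rps6k kinases, the Rps4 X and Y forms and pseudogene symbols with -ps. This gave 86 of 24062 rows. They held the genes of 76 subunit proteins, 46 of the large and 30 of the small subunit, 9 paralogs, and Rps19bp1, which encodes a binding partner of a ribosomal protein and not a part of the ribosome. Among the paralogs, Rps4l is a transcribed processed pseudogene in the GENCODE annotation, under a symbol without -ps. The rule left out the genes of 4 further subunit proteins, of which Fau, Gnb2l1 and Rps4x are given apart. Both groups carry the C57Bl6/J strain label and were collected at postnatal day 30, with 3 samples a group and 2 frozen retinas in each sample. The WT group is unmodified, and the rd10 group carries the rd10 mutation of Pde6b, a rod phosphodiesterase gene, after which rods degenerate. No treatment is named for either group. Nothing in the labels ties the samples of a group to separate animals, and the p-values therefore cover only the spread among these samples, which may be technical.

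The ribosome joins a small subunit, which reads the mRNA, to a large subunit, which forms the peptide bond, and each protein of a subunit is present in about equal number. In mammals nearly every one of these proteins comes from 1 active gene, among many processed pseudogenes, and the mRNAs open with a run of pyrimidines (the terminal oligopyrimidine, or TOP, motif) through which mTORC1 controls their translation. In the retina, rods are the most numerous cells and renew their outer segments every day.

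The counts assigned to genes ran from 13573035 to 15818918 in the WT libraries (WT-1, WT-4 and WT-23) and from 10923556 to 12171088 in the rd10 libraries (Rd10-3, Rd10-4 and Rd10-5). After a filter on low counts, 13905 genes were tested, and 2008 of them, 14.4%, had an adjusted p under 0.05 (edgeR quasi-likelihood test, Benjamini-Hochberg adjustment). The rod marker list took between 11.8% and 13.1% of the counts in WT and between 2.92% and 4.17% in rd10, and all 23 of its genes fell. Microglial markers took between 0.0172% and 0.0179% in WT and between 0.0663% and 0.0818% in rd10. Of their 24 genes, 23 were higher by edgeR at an adjusted p under 0.05, and all 24 had a positive log2 fold change with TMM scaling. Of the 18 Müller glia markers, 12 passed as higher and all 18 had a positive log2 fold change. WT-1 and Rd10-4 stood apart from the other libraries of their groups by higher levels of GC-rich transcripts. Several results below are therefore also given without WT-1 or without both. In whole retina, fewer cells of a type and less RNA per cell cannot be told apart, and the part of this shift in cell makeup in the results below was not tested.

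Of the 86 members, 82 passed the filter and were tested. Rpl10l and Rps27rt were at 0 in every library, and Rpl39l and Rpl3l never had more than 4 counts. In rd10, 4 of the 82 fell, among them Rpl9, Rpl10a and Rpl22, and none rose by edgeR with an adjusted p under 0.05. Among all tested genes 7.32% fell and 7.12% rose. At an unadjusted p under 0.05 the members numbered 14 lower and 1 higher, against 30.1% of all genes in either direction. DESeq2 called 5 members lower and none higher, against 8.59% and 8.94% of all genes, and limma voom 4 and none, against 7.17% and 7.43%.

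Most members lay a little below the middle of the gene distribution. The log2 fold change was negative for 71 of 82 members with TMM scaling, as for 53.8% of all genes, but for 37 of 82 with library size as the only scaling. The median over members was -0.22 with TMM and that of all genes -0.04. Library size alone moved the median of all genes by 0.24 and scaling on inner neuron genes by -0.28, and the median of members then read 0.02 and -0.51. A scaling factor moves all genes of a library alike. That the members hardly moved relative to the median of all genes is therefore built in and is no support. Their median lay 0.19 below it with TMM, 0.18 below it with either of those 2 scalings, and 67, 67 and 66 of the 82 members were on the lower side. Leaving out WT-1 brought this distance to -0.09, with 53 of 82 members on the lower side, and leaving out Rd10-5 brought it to -0.12, with 59. Leaving out both WT-1 and Rd10-4, an alternative chosen after seeing the data, gave -0.17 and 69.

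**Figure D1:**
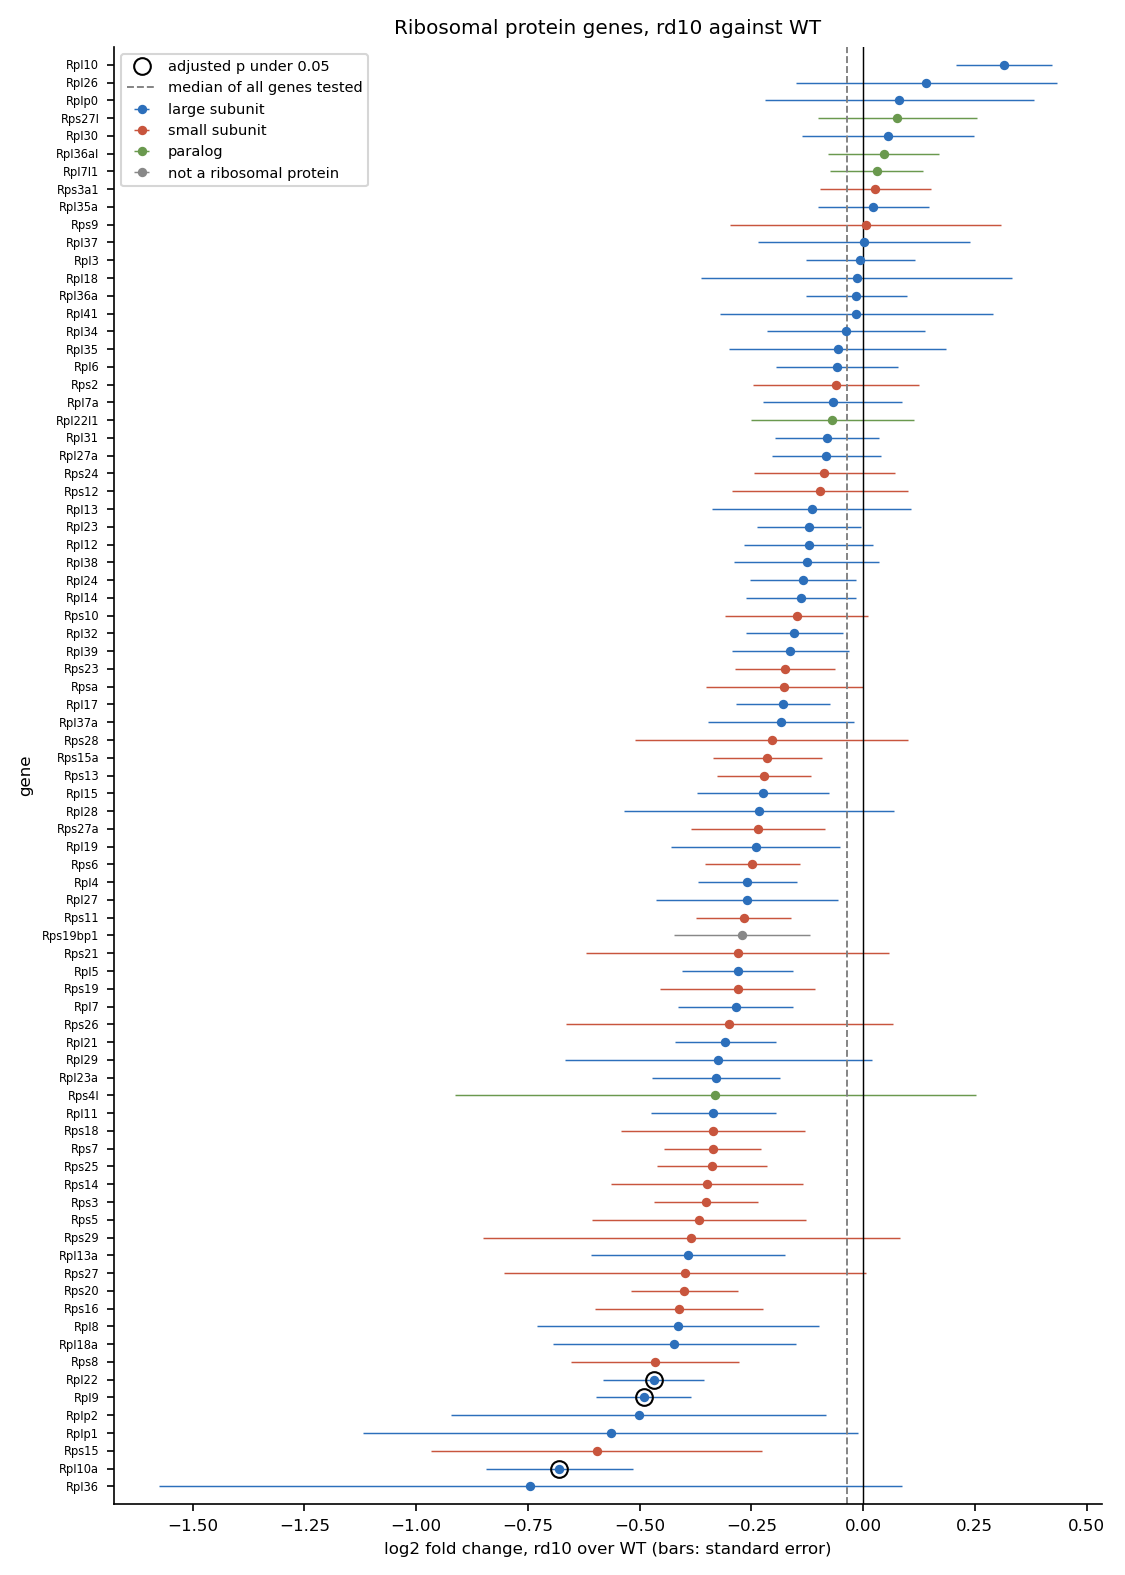
Log2 fold change of rd10 over WT (horizontal axis, TMM-scaled edgeR fit) for the tested ribosomal protein genes (vertical axis, with 1 of the 82 not drawn), with bars for the standard error, colours for the class of protein, circles around Rpl9, Rpl10a and Rpl22, which had an adjusted p under 0.05, and a dashed line at the median of all tested genes. Most points lie left of both lines, 71 of 82 below 0 (37 of 82 with library size alone), and the bars of Rpl36, Rplp1 and Rps4l are the widest.

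Rpl9, Rpl10a and Rpl22 encode proteins of the large subunit. Rpl9, whose protein lies near the site where translation factors bind, read 714, 774 and 682 CPM (the count relative to the TMM-scaled library size) in WT-1, WT-4 and WT-23, and 546, 491 and 507 CPM in Rd10-3, Rd10-4 and Rd10-5. All 3 rd10 libraries lay under the lowest WT library, with group means of 723 ± 47 and 514 ± 28 CPM (SD, n = 3 libraries each). Its log2 fold change was -0.49 ± 0.11 (SE), with an edgeR adjusted p of 0.0199. The gene lies on chromosome 5 (GRCm38, 65388364 to 65391444, minus strand).

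Rpl22, which encodes a large-subunit protein with a close paralog, read 130, 154 and 150 CPM in WT and 109, 98.7 and 106 CPM in rd10. Here too the groups were apart, and the edgeR adjusted p was 0.0298 for a log2 fold change of -0.47 ± 0.11.

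Rpl10a encodes the protein of the mobile stalk at the exit site, where spent tRNA leaves the ribosome. It read 395, 322 and 262 CPM in WT and 187, 227 and 196 CPM in rd10. Its WT libraries were spread more widely than those of Rpl9 and Rpl22, yet the lowest stood above the highest rd10 library. The log2 fold change, -0.68 ± 0.16 with an edgeR adjusted p of 0.0296, was the largest of the 4. Of the 50-base stretches of its longest protein-coding transcript, 22.3% occur in no other annotated gene, so its counts are uncertain if the counting split or dropped shared reads. The gene lies on chromosome 17 (GRCm38, 28328471 to 28331033, plus strand).

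These 4 calls rested on all 6 libraries. None held without WT-4, where the edgeR adjusted p ran from 0.107 for Rpl10a to 0.178 for Rpl22, without Rd10-3 (0.0696 for Rpl9 to 0.135 for Rpl10a) or without Rd10-5 (0.0708 for Rpl9, 0.0927 for Rpl22 and 0.0952 for Rpl10a). Without Rd10-4 only Rpl10a was called (adjusted p = 0.0467), and without WT-23 Rpl22 was lost (0.0695) while Rps20 and Rps3 entered. Without WT-1 the 4 were kept and 3 more fell, Rpl5, Rpl21 and Rps25, where 22.8% of all genes were called, 11.8% lower and 11.0% higher. Library size alone ended all 4 calls, with edgeR adjusted p of 0.0796 for Rpl10a, 0.154 for Rpl9 and 0.227 for Rpl22. It left 0 members lower and 1 higher, where 21.9% of all genes were called, 4.11% lower and 17.8% higher. Inner neuron scaling kept all 4 among 34 members lower and none higher, where 31.4% of all genes were called, 26.8% lower and 4.64% higher. In each of these fits the log2 fold changes of the 4 genes were negative.

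**Figure D2:**
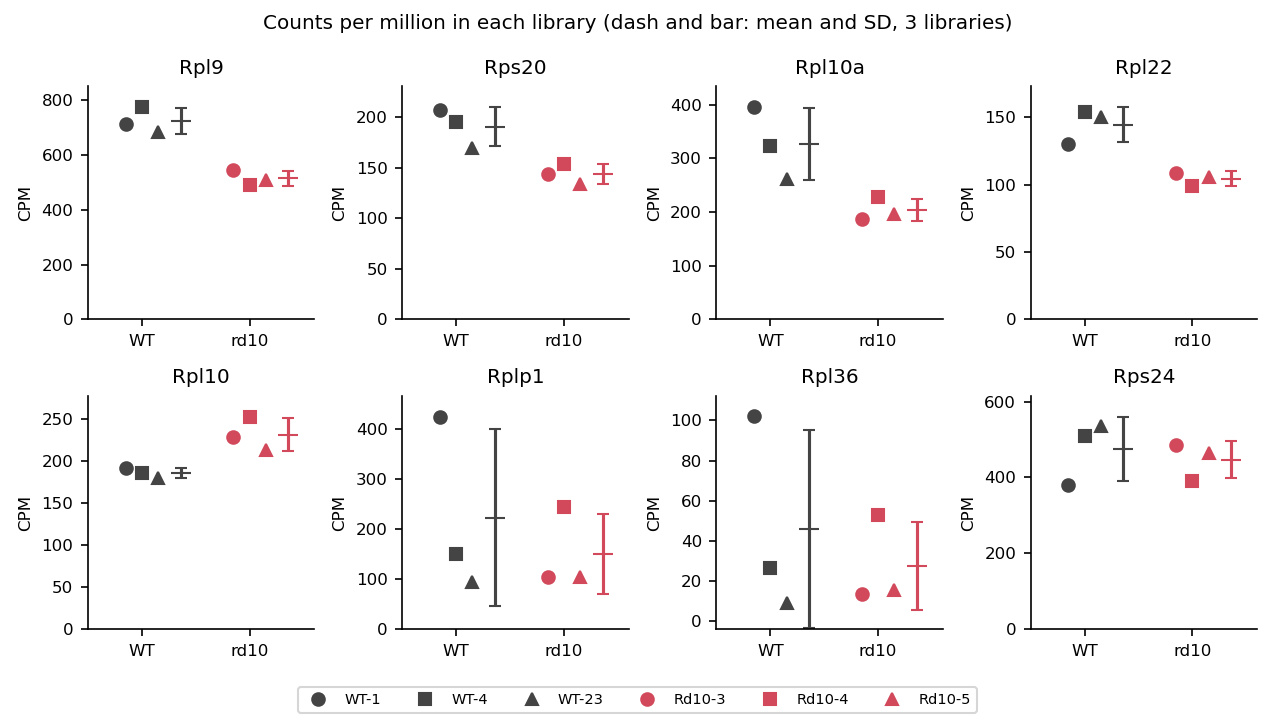
CPM (vertical axis, linear, TMM-scaled) of 8 ribosomal protein genes in each library, with WT in black and rd10 in red, marker shapes for the libraries, and a dash with a bar for the mean and SD of 3 libraries. The rd10 points lie under all WT points for Rpl9, Rps20, Rpl10a and Rpl22 and above them for Rpl10, while Rplp1 and Rpl36 spread over most of the axis within each group.

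Among the members that missed the threshold, 3 small-subunit genes came closest, named here after their values were seen. Rps20, whose protein sits by the mRNA entry side of the small subunit, read 207, 195 and 169 CPM in WT and 144, 154 and 134 CPM in rd10 (log2 fold change -0.40 ± 0.12, edgeR adjusted p = 0.0622). DESeq2 gave it an adjusted p of 0.0432. Rps7 read 424, 412 and 368 CPM against 316, 336 and 301 CPM (edgeR adjusted p = 0.0759), and Rps3, which lines the mRNA entry channel, 630, 609 and 511 CPM against 448, 473 and 450 CPM (edgeR adjusted p = 0.0834). For all 3 the groups did not overlap. Groups lay apart in that direction for 17 of 82 members, against 18.6% of all genes, so the share of members with separated groups was close to that of genes in general.

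Rpl10 was the 1 member with all 3 rd10 libraries above all 3 WT libraries, a pattern that 17.1% of all genes showed. Its protein is among the last to join the large subunit, where it is needed to release the export adaptor Nmd3. It read 192, 186 and 180 CPM in WT and 228, 252 and 213 CPM in rd10. The WT libraries were close together, and the log2 fold change was 0.32 ± 0.11 (SE; edgeR adjusted p = 0.0926). Library size alone (adjusted p = 0.0106), upper quartile factors (0.0411) and a fit with the GC trend removed (0.0100) each called it higher, and with inner neuron scaling its log2 fold change was 0.03 (edgeR adjusted p = 0.858). Only 14.6% of the 50-base stretches of its longest protein-coding transcript are its own. In all, 15 other genes share the rest, so the same limit holds as for Rpl10a. The gene is on chromosome X (GRCm38, 74270812 to 74273135, plus strand).

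Pyrimidine runs were more frequent near the annotated starts of these genes than of genes in general. RefSeq promoter windows (GRCm38.p6) matched 65 members, among them 56 subunit protein genes. A run of at least 8 C or T in a row, searched on the coding strand from 20 bases before the annotated start to 50 after it, was found in 45 of the 56, or 80.4%, against 28.5% of all genes in that table and 27.7% of the tested ones. Stretches of 30 bases with the run in capitals are shown for genes the results turn on. The first pair are genes that fell, followed by Rpl10, the member that stood higher, Rps7, and Rps15, one of the members richest in GC. Counted from 1 at the annotated start, their runs begin at base 30, 18, 41, 23 and 26, so these letters do not open the annotated mRNA and are not shown to be the TOP motif. The last pair, Rps6 and Rplp2, were picked for their position, since their runs begin 1 and 5 bases before the annotated start.
Rpl9 (chr5:65391383-65391412, minus strand): acgaaagacgTTCTCTCTTTgccccatcta
Rpl10a (chr17:28328572-28328601, plus strand): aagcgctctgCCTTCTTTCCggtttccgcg
Rpl10 (chrX:74270836-74270865, plus strand): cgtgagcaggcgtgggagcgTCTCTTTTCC
Rps7 (chr12:28635910-28635939, minus strand): tgtccccaCCTCTTTTCTTCCgccacccgg
Rps15 (chr10:80292447-80292476, plus strand): cagcccgtaCTTCCTTTTCCgagtaaccgc
Rps6 (chr4:86857349-86857378, minus strand): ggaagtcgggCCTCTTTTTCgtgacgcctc
Rplp2 (chr7:141447636-141447665, plus strand): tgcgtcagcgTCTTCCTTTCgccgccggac

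The run is present both in genes that fell and in Rpl10. Rpl22 and Rps3 have a window without such a run. In windows of 300 bases (250 before the start and 50 from it), the 8 letters CCGGAAGT, to which ETS factors bind, were found on either strand in 19.6% of the subunit protein genes and 4.31% of all genes, or 8.43% of the tested ones. AAGATGGC, a YY1 motif, was found on either strand in 8.93% and 3.19%, and 4.87% of the tested genes. TATAAA, on the coding strand, was found in 8.93% of subunit protein genes, 9.77% of all genes and 5.26% of the tested ones. For both AAGATGGC and TATAAA the 8.93% is 5 of 56 genes. The complement of CCGGAAGT holds a short stretch of C and T and can overlap a pyrimidine run. A match describes the letters in the window and is not a site.

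By subunit, the median log2 fold change was -0.16 over the 46 large-subunit genes and -0.28 over the 30 small-subunit genes, with none called higher in either. With library size alone these medians were 0.08 and -0.04, so the sign for the large subunit turned, and without WT-1 they were -0.06 and -0.16. The mean log2 CPM of large-subunit genes less that of small-subunit genes was -0.23, -0.24 and -0.27 in WT-1, WT-4 and WT-23, and -0.19, -0.15 and -0.15 in Rd10-3, Rd10-4 and Rd10-5. A scaling factor cancels in this within-library difference, and its groups did not overlap. It compares 2 sets of genes within a library and has no test here.

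The acidic stalk recruits the translation GTPases, and its 3 genes varied widely within groups. Rplp1 read 423, 150 and 94.7 CPM in WT and 105, 243 and 104 CPM in rd10. Rplp2 read 108, 52.6 and 36.4 CPM against 40.7, 67.7 and 30.7 CPM, and Rplp0, the base of the stalk, 423, 270 and 180 CPM against 275, 395 and 253 CPM. In each of the 3 genes WT-1 and Rd10-4 were the highest of their group, and the groups overlapped. The log2 fold changes of Rplp1 and Rplp2 were -0.57 ± 0.55 and -0.50 ± 0.42, and without WT-1 they became 0.29 and 0.06.

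Other members with large fitted changes shared this pattern. Rpl36 read 102, 26.7 and 8.88 CPM in WT and 13.7, 52.7 and 15.7 CPM in rd10, an 11.5-fold range within WT, and its log2 fold change was -0.75 ± 0.83 (edgeR adjusted p = 0.593). Without WT-1 it was 0.62. Rps15, which encodes a protein of the small-subunit head, read 508, 298 and 174 CPM against 174, 295 and 180 CPM (-0.60 ± 0.37, and -0.13 without WT-1). Rpl36, Rps15, Rplp1, Rplp2 and Rpl10a have the 5 largest fold changes of the family, and Rpl10a alone among them passed the test.

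The libraries ordered the members by base composition. Transcript GC content of the 76 subunit protein genes ran from 41.3% to 60.8%, with a median of 51.5%. In WT-1 the deviation of a gene from its mean over 6 libraries went up with GC content (Pearson r = 0.68 across 76 genes of 1 library, slope 0.70 log2 units per 10 points of GC), and in Rd10-4 likewise (r = 0.64, slope 0.43). In WT-23 it went down (r = -0.69, slope -0.56), as it did less steeply in Rd10-3 (r = -0.56, slope -0.26) and Rd10-5 (r = -0.50, slope -0.22). WT-4 was nearly flat (r = -0.22, slope -0.08). Over all tested genes the slopes had the same signs, from 0.37 in WT-1 to -0.40 in WT-23. So each group held 1 library tilted towards GC-rich transcripts, WT-1 and Rd10-4.

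**Figure D3:**
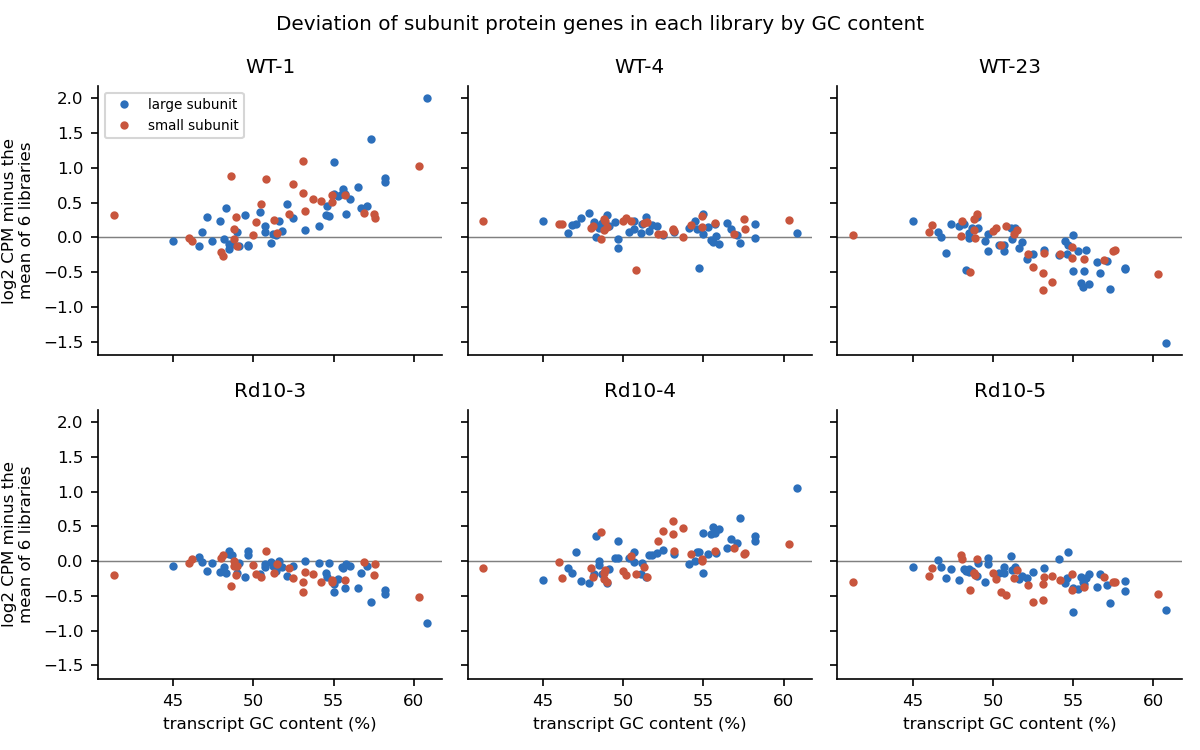
Deviation of each of the 76 subunit protein genes from its mean over 6 libraries (vertical axis, log2 CPM) against the GC content of its transcripts (horizontal axis, percent), 1 panel per library. The points climb to the right in WT-1 and Rd10-4, descend in WT-23, Rd10-3 and Rd10-5, and are nearly level in WT-4.

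Split at the median, the 38 GC-rich genes had a mean log2 CPM of 7.80, 7.31 and 6.84 in WT and 6.98, 7.46 and 6.90 in rd10, so the groups overlapped. The 38 GC-poor genes read 7.65, 7.71 and 7.59 against 7.49, 7.47 and 7.40, and the groups lay apart. The median log2 fold change was -0.24 in the GC-rich and -0.22 in the GC-poor genes. Without WT-1 the GC-rich median turned to 0.04 and the GC-poor one read -0.23, and with library size alone they were 0.01 and 0.02. The highest WT library exceeded the lowest by a median of 1.74-fold in GC-rich and 1.22-fold in GC-poor genes, and the median standard error of a log2 fold change was 0.22 and 0.12. Of the 17 members with all rd10 libraries under all WT libraries, 16 were GC-poor, and Rpl10a was the GC-rich one. This separation was seen in 18.6% of all genes, which were not split by GC content. Whether the split is particular to the members was therefore not tested. The opening of the coding sequence shows how far the members differ (GRCm38, G and C in capitals). Rpl36 and Rplp1 are GC-rich, with 61.6% and 58.2% GC over the coding sequence, and Rpl5 and Rpl9 are GC-poor, with 46.0% and 49.0%.
Rpl36: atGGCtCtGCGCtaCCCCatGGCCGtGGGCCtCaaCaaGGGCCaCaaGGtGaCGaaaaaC
Rplp1: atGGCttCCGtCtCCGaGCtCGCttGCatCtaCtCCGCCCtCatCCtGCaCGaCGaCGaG
Rpl5: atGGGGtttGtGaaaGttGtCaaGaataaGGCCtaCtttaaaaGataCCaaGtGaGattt
Rpl9: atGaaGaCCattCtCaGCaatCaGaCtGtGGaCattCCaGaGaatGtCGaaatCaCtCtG

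When a smooth trend with GC content was taken out of each library, 23 members fell and 1 rose (edgeR, adjusted p under 0.05). The background rose with it, to 36.1% of all genes, 17.9% lower and 18.2% higher. The 24 members, 12 of each subunit, included the 4 genes called before, with Rpl10 as the riser. Among those added were Rpl5 and Rpl11, which with 5S rRNA can bind Mdm2, Rps6, the substrate of the S6 kinases, Rpl4, Rps3 and Rps15. The median of members lay 0.20 below that of all genes, about where it was without the correction. In a version that takes out only the trend within groups, chosen after seeing the data, 25 members fell and 1 rose, where 37.6% of all genes were called, 20.2% lower and 17.4% higher. Leaving out WT-1 and Rd10-4 together gave 5 members lower (the 4 and Rps25) and none higher, where 19.2% of all genes were called, 9.92% lower and 9.25% higher.

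As a share of all counts the family was level between the genotypes. It took 2.02%, 1.91% and 1.63% of the counts in WT-1, WT-4 and WT-23, and 1.86%, 2.01% and 1.74% in Rd10-3, Rd10-4 and Rd10-5, with means of 1.85 ± 0.20% and 1.87 ± 0.14% (SD, n = 3 libraries each). The groups overlapped. Large-subunit genes took 1.09 ± 0.12% and 1.11 ± 0.086%, and small-subunit genes 0.747 ± 0.080% and 0.741 ± 0.053%. Of the counts outside the rod and cone marker lists, the family took 2.13 ± 0.25% in WT and 1.94 ± 0.14% in rd10, a ratio of 0.915. Within the share, the GC-rich genes moved between libraries, from 1.05% in WT-1 to 0.604% in WT-23, while the GC-poor genes stayed between 0.958% and 1.08% in all 6 libraries.

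The order of the members by level was nearly the same in both genotypes (Pearson r = 0.995 across 76 genes on log2 CPM, a description, since the values share libraries and the counting). Per kilobase of transcript, with lengths averaged over annotated transcripts, the median WT level was 297 CPM per kilobase. Rpl3, which shapes the peptidyl transferase centre, stood at 894 CPM per kilobase in WT and 890 in rd10, and Rpl13a at 857 and 654, the highest with these lengths. With the longest transcript they read 579 and 459 in WT and Rps6 read 585, so the order at the top turned with the choice of length. The 4 genes of the lowest level stood far under the rest. Rpl26 read 2.23 and 2.45 CPM per kilobase, Rps27 2.95 and 2.20, Rpl30 5.20 and 5.41, and Rpl34 11.9 and 11.5. Of the 50-base stretches of their longest protein-coding transcripts, 52.6%, 36.9%, 20.8% and 93.1% are their own, against 14.4% for Rpl3. Across the 76 genes the Pearson r between this share and the log2 level was -0.0055. For Rpl34 that transcript has 1232 bases, against a mean of 708.4, so the share need not describe the transcripts expressed here. Whether shared reads bear on these low levels was not tested. The authors' treatment of reads shared between genes is not stated in the labels or file headers.

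**Figure D4:**
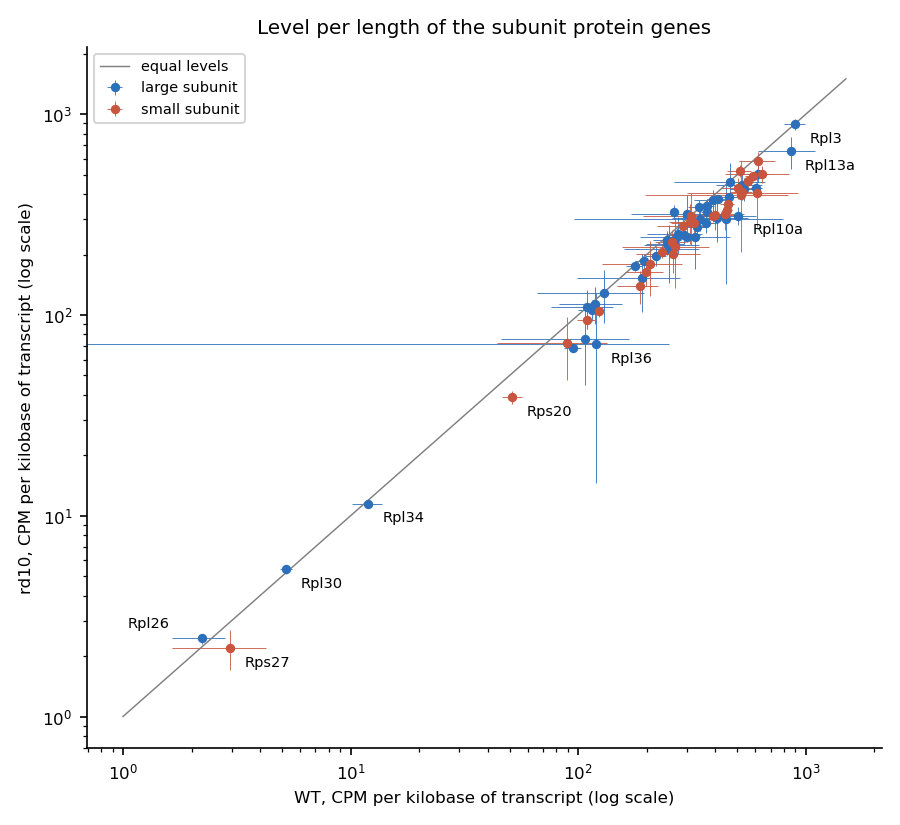
Mean level of each of the 76 subunit protein genes in WT (horizontal axis) and rd10 (vertical axis), in CPM per kilobase of transcript on log scales, with bars for the SD over 3 libraries and a line of equal levels. Most genes lie between about 50 and 900 CPM per kilobase (Rps20 at 51.3 and Rpl3 at 894 in WT), slightly under the line, and Rpl26, Rps27, Rpl30 and Rpl34 stand apart at the lower left. The bar of Rpl36 runs off the axis where the mean less the SD is below 0.

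The 10 members with the highest counts were Rpl3, Rpl4, Rpl9, Rpl7, Rpsa, Rps3, Rps3a1, Rps6, Rps24 and Rpl5, and only Rpl9 passed the test. Rpl3 read 836, 825 and 687 CPM in WT and 776, 833 and 729 CPM in rd10. Rpl4, which lines the exit tunnel, read 637, 754 and 738 CPM against 609, 571 and 600 CPM (log2 fold change -0.26 ± 0.11, edgeR adjusted p = 0.161). Rps6 read 483, 555 and 504 CPM against 452, 428 and 418 CPM (-0.25 ± 0.11, edgeR adjusted p = 0.160). Rpl3 overlapped between the groups, while Rpl4 and Rps6 did not.

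Rpl5 read 420, 512 and 511 CPM in WT and 415, 361 and 412 CPM in rd10 (log2 fold change -0.28 ± 0.12, edgeR adjusted p = 0.170), also without overlap. Only 6.16% of the 50-base stretches of its longest protein-coding transcript are its own, so the limit on shared reads holds for it too. Rpl7 read 536, 676 and 634 CPM against 547, 456 and 512 CPM (-0.29 ± 0.13), with the highest rd10 library above the lowest WT library. Rpsa, whose protein is also known as a laminin receptor, had group means of 573 ± 120 and 507 ± 73 CPM. Rps24 had 475 ± 84 and 447 ± 49 CPM, and Rps3a1 501 ± 60 and 511 ± 34 CPM (SD, n = 3 libraries each). In these last 3 the difference was smaller than the SD within a group.

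Paralogs can take the place of a subunit protein, and 5 of 9 had enough counts to test. None was called by edgeR, and their median log2 fold change was 0.03. Rpl22l1, the paralog of the falling gene Rpl22, read 42.9, 55.7 and 67.1 CPM in WT and 56.7, 45.1 and 56.3 CPM in rd10. Its log2 fold change was -0.07 ± 0.18 (edgeR adjusted p = 0.832), against -0.47 for Rpl22. The difference between the 2 genes was not tested. Per kilobase, Rpl22l1 stood at 103 and 97.9 CPM and Rpl22 at 94.9 and 68.6 CPM.

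Rpl7l1, a paralog with a role in ribosome assembly, read 64.1, 66.7 and 67.7 CPM against 68.5, 69.8 and 64.4 CPM, with Rpl7 far higher per kilobase (615 CPM against 45.4 CPM in WT). Rpl36al read 42.5, 49.5 and 44.0 CPM against 47.4, 50.3 and 42.8 CPM, beside 85.6 ± 6.5 and 84.7 ± 4.8 CPM for its parent Rpl36a. Rps27l, a p53-responsive paralog, read 10.1, 8.99 and 11.1 CPM against 12.4, 10.3 and 9.13 CPM. Its counted level stood above that of its parent Rps27, which had 1.17 ± 0.52 and 0.87 ± 0.20 CPM. Rps27 had at most 21 counts in a library, and 36.9% of the 50-base stretches of its longest transcript are its own. The limit on shared reads therefore holds for Rps27, and the order of the 2 genes is uncertain. Rps4l, annotated as a pseudogene, followed the GC-rich pattern, with 30.7, 13.5 and 5.90 CPM in WT and 9.44, 22.1 and 8.22 CPM in rd10. In all of these the groups overlapped.

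None of the 4 subunit protein genes outside the rule was called by edgeR. Rps4x, the parent of Rps4l, read 414, 513 and 498 CPM in WT and 549, 475 and 508 CPM in rd10 (log2 fold change 0.10 ± 0.12). Gnb2l1, which encodes the scaffold RACK1 on the small subunit, read 518, 383 and 301 CPM against 267, 344 and 270 CPM (-0.45 ± 0.20, edgeR adjusted p = 0.186). Fau, which encodes a ribosomal protein fused to a ubiquitin-like sequence, had a log2 fold change of -0.42 ± 0.35. Without WT-1 Fau read 0.03, and with the GC trend removed it was called lower (edgeR adjusted p = 0.0221).

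Mitochondria have ribosomes of their own, and their protein genes moved about as far as the cytoplasmic ones. Of 77 tested genes Mrpl49 was lower by edgeR (log2 fold change -0.91 ± 0.13, adjusted p = 0.00331) and none higher, 66 had a negative log2 fold change, and the median was -0.19, against -0.22 for the 82 members and -0.04 for all genes. By the same test 7.32% of all genes were lower and 7.12% higher. With library size alone the mitochondrial median was 0.05. The 3 rd10 libraries lay under the 3 WT libraries for 15 of 77 mitochondrial genes, close to the background of 18.6%. The position below the middle of all genes was therefore shared by both sets and was not tested between them.

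The genes that build ribosomes had a median log2 fold change of -0.26 over 65 assembly factors, of which 3 fell and 1 rose by edgeR, where 7.32% of all genes fell and 7.12% rose. The count turned on WT-1 and on the scaling. Without WT-1, 17 fell and none rose, where 11.8% of all genes fell and 11.0% rose. With the GC trend removed 19 fell and 2 rose, against 17.9% and 18.2% of all genes. With inner neuron scaling 28 fell and none rose, against 26.8% and 4.64%. With library size alone 2 fell and 1 rose, against 4.11% and 17.8%, and the median was -0.02. Rrp1b, a nucleolar factor of large-subunit maturation, read 92.0, 93.5 and 85.6 CPM in WT and 39.4, 44.1 and 47.4 CPM in rd10, and its call (log2 fold change -1.05 ± 0.12, edgeR adjusted p = 0.00121) held without any 1 library (at most 0.0123). Pes1, of the same pathway, read 111, 120 and 111 CPM against 81.5, 79.7 and 84.3 CPM (edgeR adjusted p = 0.0180). Rrp15 went from 11.1 ± 2.6 to 5.52 ± 0.91 CPM (edgeR adjusted p = 0.0226), and Heatr3 from 37.3 ± 1.6 up to 48.9 ± 1.5 CPM (edgeR adjusted p = 0.0496). The call of Heatr3 ended whichever library was left out (edgeR adjusted p from 0.0640 to 0.189) and with inner neuron scaling (0.532). That of Pes1 ended without WT-4 or any 1 rd10 library (up to 0.126) and with library size alone (0.156), and that of Rrp15 without WT-4, WT-23, Rd10-3 or Rd10-5 (up to 0.115). Among 18 genes of RNA polymerase I and rRNA synthesis, the terminator Ttf1 fell from 16.4 ± 2.9 to 9.55 ± 0.86 CPM (edgeR adjusted p = 0.0225, up to 0.0942 without 1 library) and no other passed. Without WT-1, 4 of these 18 fell, where 11.8% of all genes did.

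The translation factors gave few calls with TMM scaling, where 7.32% of all genes fell and 7.12% rose. None of 14 elongation and termination factors was called, and their median log2 fold change was 0.05. With library size alone 3 rose, where 17.8% of all genes did, and the median was 0.29. With the GC trend removed 3 rose (18.2% of all genes), and without WT-1 1 rose (11.0%). With inner neuron scaling 2 fell (26.8%). Eef1a1, which delivers tRNA to the ribosome, read 3980, 4600 and 4170 CPM in WT and 4970, 4650 and 4730 CPM in rd10, with every rd10 library above WT (0.17 ± 0.11, edgeR adjusted p = 0.348, or 0.0413 with library size alone). Eef2, the translocation factor, had 1750 ± 670 and 1630 ± 470 CPM. Of 38 initiation factor genes 1 fell, Eif1ad, from 37.0 ± 5.0 to 25.1 ± 0.98 CPM (edgeR adjusted p = 0.0326, up to 0.150 without 1 library). None of 19 genes of ribosome stalling and rescue was called, with a median of -0.24. Without WT-1, 6 initiation factors fell and 1 rose, and 3 genes of stalling and rescue fell. Of all genes, 11.8% fell and 11.0% rose in that fit. With the GC trend removed 11 initiation factors fell and 3 rose, and 7 genes of stalling and rescue fell (17.9% and 18.2% of all genes). With inner neuron scaling 17 and 7 fell and none rose (26.8% and 4.64%). With library size alone 3 initiation factors rose, and no gene of stalling and rescue was called (4.11% lower and 17.8% higher).

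Among 13 other mRNAs with a TOP motif, 1 fell and 1 rose, where 7.32% of all genes fell and 7.12% rose. The host gene of small nucleolar RNAs Snhg12 went from 17.3 ± 0.93 to 11.2 ± 1.9 CPM (edgeR adjusted p = 0.0381, up to 0.159 without 1 library). Vim, which encodes the intermediate filament vimentin of Müller glia, rose from 152 ± 27 to 309 ± 44 CPM (edgeR adjusted p = 0.00534, at most 0.0347 without any 1 library). Of the mTORC1 and S6 kinase list, 2 of 37 fell and 1 rose, against the same shares of all genes. Rps6ka2, an RSK kinase, went from 282 ± 21 to 195 ± 16 CPM (edgeR adjusted p = 0.0192) and Ddit4, an inhibitor of mTORC1, from 56.3 ± 9.3 to 31.9 ± 6.1 CPM (0.0204), while Gatsl3, an arginine sensor of the pathway, went from 2.82 ± 0.93 to 6.43 ± 0.53 CPM (0.0193). Each of these 3 calls ended without some 1 library, with edgeR adjusted p of up to 0.111, 0.102 and 0.0803. Without WT-1 the TOP list had 3 lower and 1 higher, and the mTORC1 and S6 kinase list 6 and 3. Of all genes, 11.8% were lower and 11.0% higher in that fit.

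In the lists of Myc and p53, 1 of 9 and 1 of 13 tested genes fell and none rose. Of all genes, 7.32% fell and 7.12% rose. Max, the partner of Myc, went from 102 ± 4.8 to 77.8 ± 2.6 CPM (edgeR adjusted p = 0.0432, up to 0.204 without 1 library), and the stress gene Gadd45a from 13.8 ± 2.2 to 7.60 ± 1.5 CPM (0.0289, up to 0.113). Without WT-1 the counts were 2 lower and 1 higher in the Myc list and 3 and 2 in the p53 list. The shares of all genes in that fit were 11.8% lower and 11.0% higher.

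**Figure D5:**
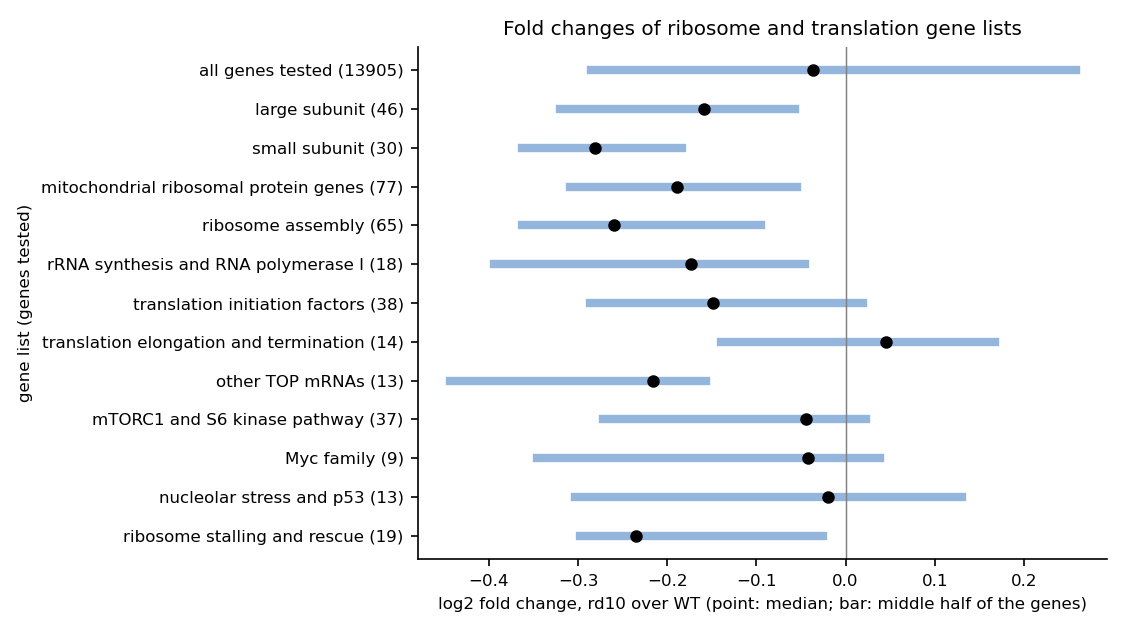
Median log2 fold change of rd10 over WT (points) and the interquartile range (bars) for the subunit protein genes and the lists of ribosome production and translation, beside all 13905 tested genes, with the number of tested genes in brackets. With TMM scaling most medians lie between -0.3 and 0, the small subunit at -0.28, ribosome assembly at -0.26 and elongation and termination at 0.05, and with library size alone the medians of the large subunit and of most other lists lie above 0.

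The authors' deposited table of 3427 genes, in which the largest p was 0.0499, lists 15 of the 86 members, 17.4%. It lists 14.2% of all rows of the count table, but 5857 of those rows were at 0 in every library. Only 2 members were, so the shares have unlike bases and do not show how members compare with expressed genes. Of the 15 members, 14 are lower and 1 is higher in rd10, Rpl10, where 57.7% of all genes in the authors' table are lower. In the authors' deposited table Rpl9 stands at 277.7 FPKM in WT and 197.3 FPKM in rd10, Rpl10a at 184.1 and 114.8 FPKM, and Rpl10 at 54.0 and 67.2 FPKM. The log2 fold changes of the 15 members there differed from those of the edgeR fit by at most 0.00148. The table gives no value per library.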

How the data were processed

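The authors deposited raw gene counts in 6 library columns and a table with FPKM per group, log2 fold change and p-value, per the file headers. TopHat2 2.1.0, HTSeq, edgeR and mm10 are named in the submitters' processing notes, and strand-specific libraries from 1 µg of total RNA in the labels' protocols. Annotation and treatment of shared reads are not given in the sources used. Count columns carry a group name, but their numbers as a set do not match the replicate numbers of the titles. They were therefore assigned to WT or rd10 only.

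Counts were filtered with filterByExpr and tested in edgeR 4.0.16 (R 4.3.3; TMM, robust quasi-likelihood fit, genotype only; threshold 0.05 after Benjamini-Hochberg over 13905 genes), a fit tested on simulated data. Mean log2 CPM has a prior count of 2. Libraries of a group differed beyond sampling noise (chi-square per degree of freedom 7.36 to 57.8). The TMM factors of WT libraries lay between 0.902 and 0.933, those of rd10 libraries between 1.08 and 1.10. Lengths, GC content, positions and coding sequences came from GENCODE M21 (GRCm38, the assembly of mm10). Alternatives used DESeq2 1.42.0, limma 3.58.1, other scalings and filters, a fold of 1.2, GC or length trends removed (loess span 0.3), and each library left out.

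Named by rule were called members, the 10 with the highest CPM, the 5 largest fold changes at 5 CPM or more, paralogs at 0.5 CPM or more with their parents, and up to 3 called genes per list or else its 2 most abundant. One called member and 1 other gene are not reported here. Other names complete a count or mark an extreme. Members, lists and tests were chosen with earlier results of these data known.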

Additional observations from a re-analysis of the deposited data

How the results depend on the processing

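The precision is set by 3 libraries a group, and the median standard error was 0.22 in GC-rich and 0.12 in GC-poor members. Against 4 members called lower and none higher, RLE factors, limma voom, the stricter filter and TMM without rod, cone and ribosomal protein genes also gave 4, and no filter on low counts gave 3. Upper quartile factors gave 1 lower and 1 higher, library size alone 0 and 1, inner neuron scaling 34 lower, a test against a fold of 1.2 gave 0, the GC trend removed 23 and 1, the length trend removed 2 lower, and the within-group GC trend removed 25 and 1. Leaving out 1 library at a time gave 0 to 7 members lower and none higher. The cause of these moves was not tested. No paired analysis was possible because the count columns carry other numbers than the sample titles and share only 1 of them between groups.

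Of all genes, 1018 were lower and 990 higher, a split that depended on the scaling, with 49.3% of calls higher under TMM, 63.3% under upper quartile factors, 81.2% under library size alone and 14.8% under inner neuron scaling. The counts were 572 lower and 2471 higher under library size alone, 3727 and 645 under inner neuron scaling, 2487 and 2531 with the GC trend removed, 2813 and 2413 with the within-group trend removed, and 623 lower against a fold of 1.2. Without 1 library they ran from 411 to 1661 lower and from 474 to 1553 higher.

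Over the lists of ribosome production and translation, 10 genes were lower and 3 higher. Library size alone gave 3 and 13, inner neuron scaling 90 lower, the fold of 1.2 gave 3 lower, the GC trend removed 57 and 15, the within-group trend removed 67 and 11, leaving out WT-1 and Rd10-4 gave 26 lower, and upper quartile factors gave 5 higher. Without 1 library the counts ran from 2 to 44 lower and from 1 to 9 higher, with the highest counts without WT-1. The shares of all genes moved too. They were 7.32% lower and 7.12% higher with TMM, 4.11% and 17.8% with library size alone, and 26.8% and 4.64% with inner neuron scaling. With the GC trend removed they were 17.9% and 18.2%, and with the within-group trend removed 20.2% and 17.4%. Without WT-1 they were 11.8% and 11.0%, and without WT-1 and Rd10-4 9.92% and 9.25%.

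The median log2 fold change of members was 0.0183 under library size alone and -0.505 under inner neuron scaling, and members with a negative value numbered 37 with library size alone. The ratio of the share of counts was 0.915 outside the rod and cone lists, against 1.01. The median WT level was 243 CPM per kilobase with the longest transcript in place of the mean length.

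No called gene that is named reversed its direction in any alternative. Values near 0 or with wide errors did. None of these was called with TMM, though Eef1a1 was called with library size alone (0.411) and Fau with either GC trend removed (-0.436 and -0.362). With library size alone Rpl3 read 0.235, Rpsa 0.066, Rps24 0.150, Rpl22l1 0.168, Rpl36a 0.224 and Eef2 0.141. With inner neuron scaling Rps3a1 read -0.259, Rpl36al -0.240, Rpl7l1 -0.256, Rps27l -0.212, Rps4x -0.184, Eef1a1 -0.114 and Usp9x -0.258. With upper quartile factors Rpl3 read 0.088, Rps24 0.007, Rpl22l1 0.026 and Rpl36a 0.080. Rpl3 read 0.012 with DESeq2 and with RLE factors, 0.015 with TMM without the 3 gene sets, 0.024 with no filter and 0.036 with the length trend removed. Rpl36a read 0.002, 0.003, 0.003, 0.015 and 0.061 in the same order, and with the GC trend removed it read 0.056 and Rpl22l1 0.073. Without WT-1 and Rd10-4, Rps3a1 read -0.013, Rpl36al -0.054, Rpl7l1 -0.019 and Usp9x -0.015.

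Leaving out 1 library at a time, the log2 fold change ran from -0.071 to 0.054 for Rpl3, -0.066 to 0.121 for Rps3a1, -0.229 to 0.026 for Rps24, -0.223 to 0.113 for Rpl22l1, -0.009 to 0.132 for Rpl36al, -0.051 to 0.178 for Rps27l and -0.078 to 0.043 for Rpl36a. It ran from -1.64 to 0.618 for Rpl36, -1.09 to 0.294 for Rplp1, -0.88 to 0.056 for Rplp2, -0.913 to 0.442 for Rps4l, -0.844 to 0.219 for Rps29, -0.364 to 0.229 for Eef2, -0.714 to 0.031 for Fau and -0.142 to 0.269 for Usp9x. For Rpl36, Rplp1, Rplp2, Rps4l, Rps29 and Fau only the fit without WT-1 was positive.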

Other observations

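The kinases of ribosomal protein S6 and their relatives share a stem of symbol with the members and were left out by the rule, so their values stand here as a description. Rps6kb1, the S6 kinase downstream of mTORC1, read 36, 38.1 and 55.1 CPM in WT and 26.2, 22.6 and 32.6 CPM in rd10. The groups lay apart, with a log2 fold change of -0.67 ± 0.21 (edgeR adjusted p = 0.0694, or 0.00307 with the GC trend removed). Rps6ka1, an RSK kinase, read 10.7, 7.59 and 5.76 CPM against 13, 19.3 and 13.5 CPM, with every rd10 library higher (0.93 ± 0.26, edgeR adjusted p = 0.0503, or 0.000502 with the GC trend removed). Its relative Rps6ka2, in the list of the mTORC1 pathway, fell. Whether the RSK genes differ in their response was not tested.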
